A study of Mus musculus with 8 samples.

Results

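Chemokine ligands and their receptors were examined in the iWAT (inguinal white fat, beneath the skin of the groin) of mice with and without the SUMO protease gene Senp2 in adipocytes. Control mice (Senp2flox/flox) carried loxP-flanked Senp2 alleles, and Senp2-aKO mice (Senp2flox/flox ; Adipoq Cre) carried the same alleles together with a Cre recombinase driven by Adipoq, a gene of adipocytes and not of the leukocytes that also live in fat. All mice began a diet with 58 kcal% fat at an age of 8 weeks, stayed on it for 12 weeks and were kept at 22 to 24 °C. Total RNA from 4 control and 4 Senp2-aKO samples was labelled with Cy3 and hybridised to 1-colour Agilent arrays, 1 array per sample. The genes were chosen by symbol alone, as every gene named Ccl, Cxcl, Ccr or Cxcr with a number, together with Cx3cl1, Cx3cr1, Xcl1, Xcr1, Ackr1 to Ackr4, Ccrl2, Pf4 and Ppbp. This gave 72 of 55681 probes and 60 of 20972 named genes, of which 46 were bright enough to be tested among 14731 genes.

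Chemokines are small secreted proteins that bind receptors with several membrane passes on leukocytes and direct where those cells move. They are sorted into the CC, CXC, XC and CX3C families by the spacing of the cysteines near their start, and most of their receptors signal through inhibitory G proteins, whereas atypical receptors bind chemokines without that signal and clear or carry them. In fat, Ccl2 and its receptor Ccr2 are known for bringing monocytes into the tissue on a high-fat diet. The groin fat pad of the mouse also encloses a lymph node, where Ccl19 with Ccr7 and Cxcl13 with Cxcr5 place T and B lymphocytes.

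The 75th percentile of the signal was 408 to 446 on control arrays and 324 to 382 on Senp2-aKO arrays, and no spot was saturated. All arrays came from 1 slide and 1 scan, with each group filling a row of the slide, so the row cannot be told apart from the genotype. All 7 adipocyte markers tested were above background, Senp2 itself was at 82.8% of control (adjusted p = 0.0507 in limma, 4 arrays per group), and 8 of 8 skeletal muscle markers rose, with a summed log2 level of 2.53 to 6.14 in controls and 8.38 to 9.92 in Senp2-aKO samples. Senp2-aKO replicate 2 stood apart: it was the lowest of the 8 arrays for 35.6% of all genes and the highest for 18.9%, and its lymphocyte markers were high. The mean of 6 B lymphocyte markers was 2.09 there against -3.06 to -0.30 on the other 7 arrays, and that of 7 T lymphocyte markers was 2.73 against -0.97 to 0.47. The neutrophil list (3.58 against 0.54 to 1.80) and the dendritic cell list (1.52 against 0.54 to 1.11) were also highest there. The labels do not say whether replicates are single mice or pools, so p-values measure the spread between these samples.

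Of the 46 tested chemokine and receptor genes, 4 rose in Senp2-aKO fat and 4 fell. The receptor gene Ccr8, the ligand gene Ccl6 and the atypical receptor genes Ackr2 and Ackr1 rose, and the ligand genes Ccl2 and Ccl4, the receptor gene Ccr2 and the atypical receptor gene Ccrl2 fell. The threshold was an adjusted p of 0.05 in limma, by Benjamini and Hochberg over all genes tested. The 8 genes are 17.4% of the 46, against 14.4% of all genes that passed (7.29% risen and 7.12% fallen), so the share was near that of the array as a whole. The groups did not overlap in 8 of the 46 (17.4%), against 26.3% of all genes. The median log2 fold change, Senp2-aKO minus control, was 0.03 over the 46 and -0.02 over all genes, while the median size regardless of sign was 0.72 against 0.24. Among the 38 genes that did not pass, 6 had a higher and 5 a lower mean with an unadjusted p below 0.05. Leaving out single arrays changed the counts: 1 gene fell without any control, Senp2-aKO replicate 1 or replicate 4, 7 fell without replicate 2, and 2 rose without control 1. The calls over all genes moved too, from 2123 to between 714 and 1254 without a control, replicate 1 or replicate 4. Without replicate 2 they numbered 2828. With no filter on dim probes, Ccl2, Ccl4, Ackr1 and Ccrl2 lost their calls (adjusted p = 0.0729, 0.0771, 0.0563 and 0.0577 in limma). The exact permutation test over the 70 assignments of 4 arrays gave p = 0.0571 for Ccl4 and 0.0286, the smallest it allows, for each of the other 7 genes.

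**Figure D1:**
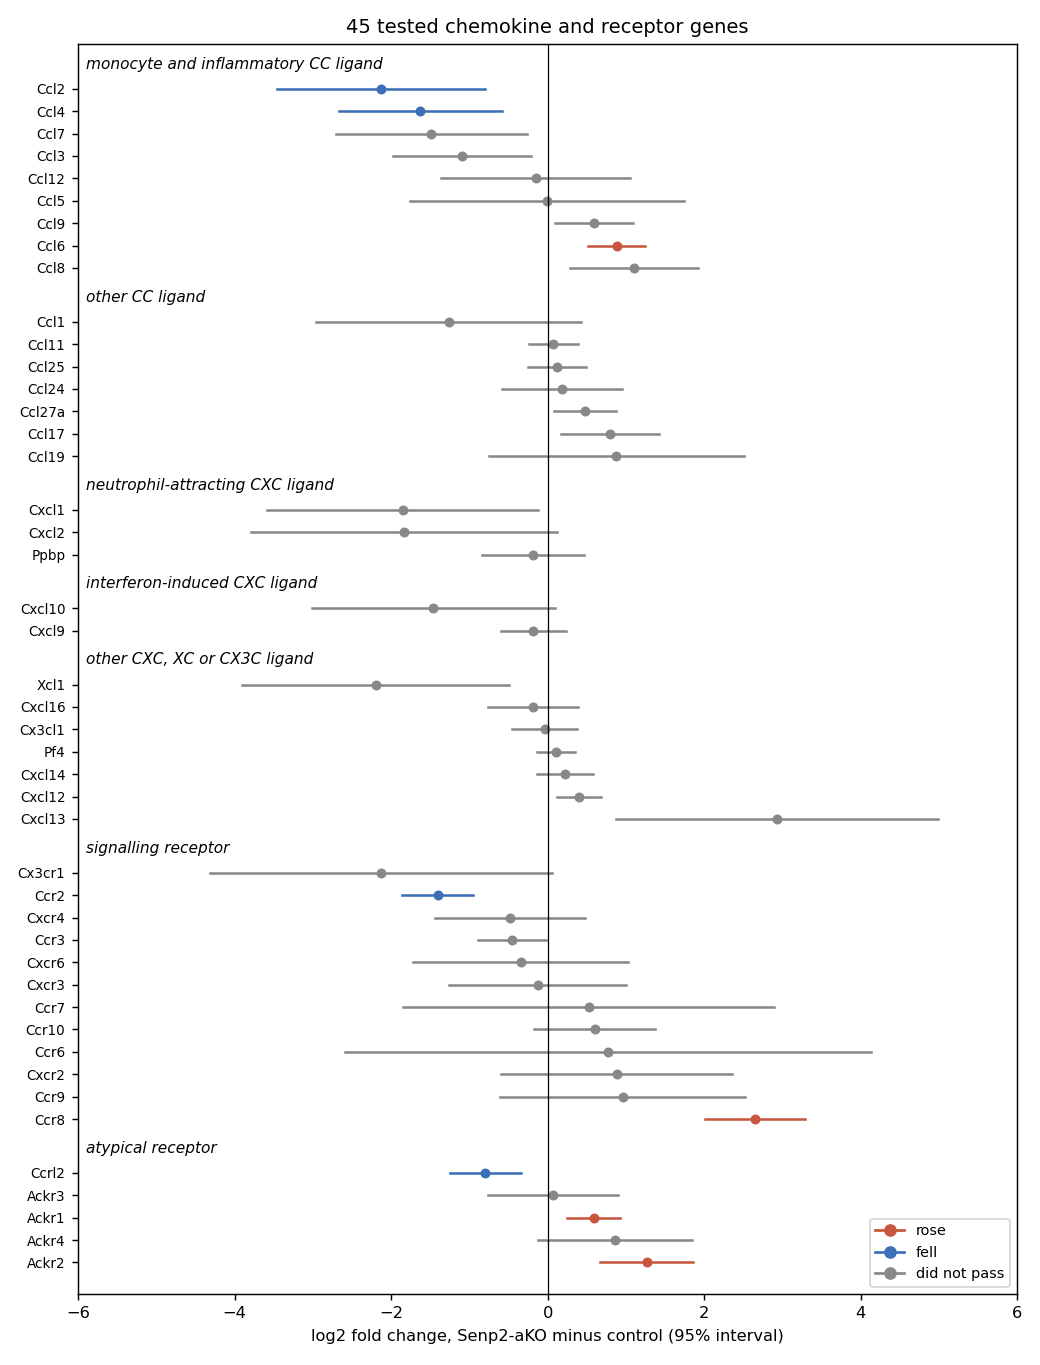
Log2 fold change (Senp2-aKO minus control) of 45 of the 46 tested genes on the horizontal axis, grouped by role, with points for the estimate and lines for the 95% interval from limma (n = 4 per group). Red marks the 4 genes that rose, blue the 4 that fell and grey those that did not pass; Ccr8 lies farthest to the right among those that passed and Ccl2 farthest to the left.

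Among the CC ligands of monocytes and inflammation, Ccl2 and Ccl4 fell, Ccl6 rose and 6 of 9 did not pass. Ccl2, the main attractant of monocytes, had log2 levels relative to the array's 75th percentile of 3.60, 3.08, 3.68 and 2.66 in controls and 1.05, -0.48, 2.59 and 1.34 in Senp2-aKO samples. Every Senp2-aKO value lay below every control, although replicate 3 came close to the lowest control and the Senp2-aKO values spread widely. The level fell to 22.8% of control (log2 fold change -2.13, 95% limits -3.46 and -0.80, adjusted p = 0.0455 in limma, 4 arrays per group). The call ended on leaving out any control, Senp2-aKO replicate 1 or replicate 4 (adjusted p up to 0.116) and held without replicate 2 (0.0384) or replicate 3 (0.0140).

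Ccl4, an attractant of monocytes and T lymphocytes, had levels of -1.10, -1.96, -0.21 and -1.56 in controls and -3.49, -1.84, -2.78 and -3.23 in Senp2-aKO samples. The groups overlapped, because Senp2-aKO replicate 2 lay above control 2. The fall was 3.09-fold (95% limits 1.50 and 6.36, adjusted p = 0.0485 in limma, 4 arrays per group) and passed on leaving out Senp2-aKO replicate 2 (0.0219) but not on leaving out any other array (up to 0.116). With a normexp background the fall of Ccl4 was smaller and did not pass (log2 fold change -0.82, adjusted p = 0.0747).

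Ccl6, a CC ligand made by macrophages and other myeloid cells, moved the other way. Its log2 levels were 5.67, 5.48, 6.03 and 5.86 in controls and 6.84, 6.73, 6.32 and 6.67 in Senp2-aKO samples. All 4 Senp2-aKO values lay above all 4 controls, and the rise of 1.84-fold (95% limits 1.43 and 2.36, adjusted p = 0.0130 in limma, 4 arrays per group) kept its call on leaving out any single array.

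The other ligands of this group split in direction without passing. Ccl7, a further monocyte attractant, was at 35.7% of control (log2 fold change -1.49, SE 0.53, adjusted p = 0.0971 in limma), and Ccl3, an inflammatory ligand of macrophages like Ccl4, at 47.0% (-1.09, SE 0.38, adjusted p = 0.0936). Ccl8 was at 215% (1.10, SE 0.35, adjusted p = 0.0728) and Ccl9 at 151% (0.59, SE 0.22, adjusted p = 0.106). Ccl7 passed without Senp2-aKO replicate 3 (0.0327), and Ccl8 and Ccl9 passed without control 3 (0.0294 and 0.0423). Ccl12 and Ccl5 gave -0.16 and -0.01. Ccl5, a ligand of T lymphocytes and platelets, read 3.73, 2.87, 3.38 and 2.48 in controls and 1.91, 5.46, 3.17 and 1.87 in Senp2-aKO samples, both the lowest and the highest of the 8 values being from Senp2-aKO samples. Of the macrophage markers 1 of 9 rose, the haemoglobin scavenger receptor gene Cd163 (1.04, SE 0.21), 0 fell in limma, Trem2 gave -1.71 (SE 0.52) without passing, and their summed log2 level was 6.68 to 7.41 in controls and 6.84 to 7.14 in Senp2-aKO samples. In whole tissue, fewer cells of a type and less RNA per cell cannot be told apart.

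**Figure D2:**
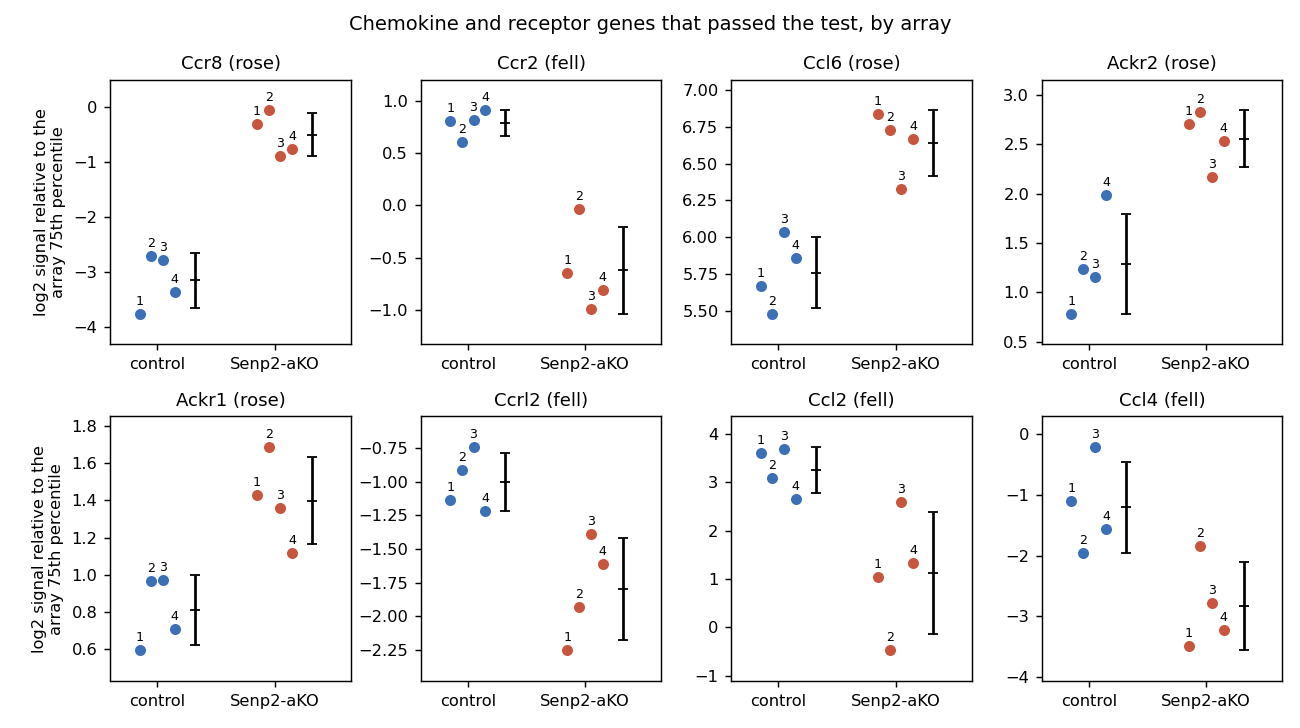
Log2 signal relative to the array's 75th percentile (vertical axis) for the 8 genes that passed, with a numbered point per sample and the mean ± SD beside each group of 4. The groups are apart in all but Ccl4, where Senp2-aKO replicate 2 at -1.84 lies above control 2 at -1.96.

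Of the CXC ligands that attract neutrophils 3 were tested and none passed. Cxcl1 had levels of 1.55, 2.75, 1.15 and -0.69 in controls and -0.83, -1.93, 0.49 and -0.40 in Senp2-aKO samples. Control 4 lay within the Senp2-aKO range. Its mean was 27.7% of control (log2 fold change -1.85, SE 0.75, adjusted p = 0.131 in limma, 4 arrays per group). Cxcl2, above background on 3 control arrays and 1 Senp2-aKO array, gave -1.84 (SE 0.85, adjusted p = 0.177), and Ppbp of platelets -0.19. With a normexp background Cxcl2 gave -0.22. Of the ligands induced by interferon, Cxcl10 read 0.36, 0.61, 0.62 and -0.29 in controls and -3.29, -0.98, 0.13 and -0.40 in Senp2-aKO samples. Replicate 3 lay among the controls and replicate 1 far below them, and the fold change did not pass (-1.46, SE 0.67, adjusted p = 0.176). Cxcl9 gave -0.18 (SE 0.18).

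Of the remaining CXC, XC and CX3C ligands 7 were tested and none passed in limma. Cxcl12, which holds leukocytes and blood precursors in tissue through Cxcr4, had levels of 4.14, 3.87, 4.29 and 3.97 in controls and 4.38, 4.41, 4.41 and 4.67 in Senp2-aKO samples. The groups did not overlap, but the rise of 1.32-fold (95% limits 1.09 and 1.60, adjusted p = 0.0602 in limma, 4 arrays per group) did not pass. A second Cxcl12 probe, for another transcript, gave 0.11 (SE 0.33). Cxcl14, known as a product of heat-producing fat, read 4.25, 4.33, 3.70 and 4.27 in controls and 4.25, 4.24, 4.51 and 4.41 in Senp2-aKO samples. Control 3 was the lowest, and the difference did not pass (0.22, SE 0.16, adjusted p = 0.365), while the 4 brown adipocyte markers Ucp1, Cidea, Dio2 and Elovl3 rose. The membrane-bound ligand Cx3cl1 read -0.05, 0.23, 0.41 and -0.18 in controls and -0.19, -0.08, 0.46 and 0.07 in Senp2-aKO samples, with the groups overlapping over most of their range (-0.04, SE 0.18). Pf4 of platelets and macrophages (0.11, SE 0.11), Cxcl16 (-0.19, SE 0.25) and the eosinophil attractant Ccl11 (0.07, SE 0.14) did not pass either.

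Cxcl13, the attractant of B lymphocytes, had the highest log2 fold change of the 46 genes and did not pass. Its levels were -0.11, -2.61, 0.75 and -1.02 in controls and 3.40, 3.07, 0.06 and 2.20 in Senp2-aKO samples. Senp2-aKO replicate 3 lay below control 3, so the groups overlapped (log2 fold change 2.93, SE 0.89, adjusted p = 0.0631 in limma, 4 arrays per group). Without replicate 3 the adjusted p was 0.0217, and with a normexp background 0.0434. The B lymphocyte marker list was highest on replicate 2, with a mean of -2.95, -2.46 and -2.54 on the other 3 Senp2-aKO arrays. Their part in the level of Cxcl13 was not tested.

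The other CC ligands did not pass. Ccl17, which binds Ccr4, gave 0.80 (SE 0.27, adjusted p = 0.0874 in limma), Ccl27a of epithelia 0.48 (SE 0.17, adjusted p = 0.0987), Ccl24 0.18 (SE 0.33) and Ccl25 0.12 (SE 0.16). The other 2 Ccl27a probes gave 0.41 and 0.20. Ccl1, a ligand of Ccr8, was above background on 3 control arrays and 1 Senp2-aKO array. It gave -1.26 (SE 0.74, adjusted p = 0.272), and -0.0027 with a normexp background. Its receptor gene Ccr8 rose on the same arrays.

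Among 13 tested signalling receptors Ccr8 rose, Ccr2 fell and 11 did not pass. Ccr8, a receptor known from regulatory and type 2 helper T lymphocytes and skin T cells, had the largest change of all genes of the family that passed. Its levels were -3.75, -2.71, -2.77 and -3.36 in controls and -0.30, -0.06, -0.88 and -0.75 in Senp2-aKO samples, and a wide gap lay between the groups. It rose 6.27-fold (95% limits 4.03 and 9.77, adjusted p = 0.00367 in limma, 4 arrays per group) and kept its call on leaving out any single array. With a normexp background the rise of Ccr8 was smaller and passed (log2 fold change 1.57 against 2.65). Of the T lymphocyte markers 0 of 7 passed in limma, 0 had an unadjusted p under 0.05, and their mean was -0.97, 2.73, -0.10 and -0.96 on the 4 Senp2-aKO arrays against -0.47 to 0.47 in controls. A second probe with the same RefSeq accession was not well above background on any of the 8 arrays, so the rise of Ccr8 rests on 1 probe.

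Ccr2, the monocyte receptor for Ccl2 and Ccl7, had levels of 0.80, 0.61, 0.82 and 0.91 in controls and -0.65, -0.04, -0.99 and -0.81 in Senp2-aKO samples. The controls lay close together and all Senp2-aKO values lay below them, with replicate 2 the nearest. The fall was 2.65-fold (95% limits 1.93 and 3.64, adjusted p = 0.00660 in limma, 4 arrays per group), and it kept its call on leaving out any single array. Ccr3 of eosinophils gave -0.45 (SE 0.19, adjusted p = 0.140).

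Cx3cr1, the receptor for Cx3cl1 on monocytes and macrophages, split the Senp2-aKO samples. It read -1.23, -0.21, 0.55 and -0.87 in controls and -3.20, 0.26, -2.69 and -4.66 in Senp2-aKO samples. Replicate 2 lay among the controls and the other 3 lay below all of them, and over all 8 arrays the gene did not pass (log2 fold change -2.13, SE 0.95, adjusted p = 0.163 in limma, 4 arrays per group). The probe was not well above background on replicate 4, and with a normexp background Cx3cr1 gave -0.99. Its 2 other probes gave -1.81 and -1.88, and the first of them was well above background on only 1 Senp2-aKO array. Without replicate 2 the fold change was -3.08 (SE 0.57, adjusted p = 0.0172).

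Of 5 atypical receptors Ackr2 and Ackr1 rose and Ccrl2 fell. Ackr2, which takes up and degrades inflammatory CC ligands including Ccl2, had levels of 0.78, 1.23, 1.16 and 1.99 in controls and 2.70, 2.83, 2.17 and 2.53 in Senp2-aKO samples. Control 4 came closest to the Senp2-aKO values, and the groups did not overlap. Ackr2 rose 2.41-fold (95% limits 1.59 and 3.63, adjusted p = 0.0190 in limma, 4 arrays per group), a call that ended without control 1 or control 3 (adjusted p up to 0.0546). A second Ackr2 probe, for another transcript, was not well above background on any array.

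Ackr2 is known from lymphatic endothelium, and 2 of 3 tested lymphatic markers rose on the same arrays, Lyve1 (log2 fold change 1.75, SE 0.34) and Pdpn (0.84, SE 0.12). Flt4 did not pass (0.85, SE 0.45), and Prox1, also listed, was not among the genes tested. The summed log2 level of the 3 tested markers was 2.34 to 2.97 in controls and 3.56 to 3.94 in Senp2-aKO samples. Their part in the rise of Ackr2 was not tested.

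Ackr1, which moves chemokines across the wall of small veins and is also found on red blood cells, had levels of 0.59, 0.97, 0.97 and 0.71 in controls and 1.43, 1.69, 1.36 and 1.12 in Senp2-aKO samples. All Senp2-aKO values lay above the controls. The rise of 1.50-fold (95% limits 1.19 and 1.90, adjusted p = 0.0340 in limma, 4 arrays per group) ended on leaving out any control, Senp2-aKO replicate 1 or replicate 3 (adjusted p up to 0.0970). Of 6 blood endothelial markers 0 passed in limma and 1 had an unadjusted p under 0.05, and their summed level was 5.20 to 5.55 in controls and 5.37 to 5.67 in Senp2-aKO samples. The 2 red blood cell markers tested did not pass either.

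Ccrl2, which binds the attractant chemerin and presents it to neighbouring cells, read -1.14, -0.91, -0.74 and -1.22 in controls and -2.26, -1.94, -1.39 and -1.61 in Senp2-aKO samples. The groups did not overlap, and the level fell to 57.6% of control (1.74-fold, 95% limits 1.26 and 2.39, adjusted p = 0.0350 in limma, 4 arrays per group). The call held only without Senp2-aKO replicate 3 (0.0194) when single arrays were left out, and the adjusted p reached 0.0936 in the other omissions. With a normexp background Ccrl2 passed with a smaller fall (log2 fold change -0.48 against -0.80). Ackr3, the atypical receptor for Cxcl12, read 2.83, 2.98, 2.73 and 3.17 in controls and 2.71, 2.14, 4.05 and 3.08 in Senp2-aKO samples. Senp2-aKO samples held both the lowest and the highest value, and the fold change was 0.07 (SE 0.36). Ackr4, which clears Ccl19, was above background on 1 control array and 4 Senp2-aKO arrays and gave 0.86 (SE 0.43, adjusted p = 0.205).

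The sequences before the start sites of the 4 genes with the smallest p-values are shown because these genes carry the changes of the family in both directions, Ccr8, Ccl6 and Ackr2 upward and Ccr2 downward. Each is the 250 bases before the RefSeq start in build GRCm38.p6, 5′ to 3′ on the gene's strand, and capitals mark a match on either strand to a pattern bound by NF-kB (GGGA and CC with any 4 bases between), C/EBP (TTNNGNAA) or AP-1 (TGANTCA) factors. The positions are chr9:120091883-120092132 (plus strand) for Ccr8, chr9:124101933-124102182 (plus) for Ccr2, chr11:83593088-83593337 (minus) for Ccl6 and chr9:121898105-121898354 (plus) for Ackr2.
Ccr8: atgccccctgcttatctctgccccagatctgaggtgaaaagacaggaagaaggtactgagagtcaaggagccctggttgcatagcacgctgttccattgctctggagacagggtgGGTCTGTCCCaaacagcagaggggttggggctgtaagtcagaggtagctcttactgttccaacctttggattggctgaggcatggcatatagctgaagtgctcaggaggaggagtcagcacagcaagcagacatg
Ccr2: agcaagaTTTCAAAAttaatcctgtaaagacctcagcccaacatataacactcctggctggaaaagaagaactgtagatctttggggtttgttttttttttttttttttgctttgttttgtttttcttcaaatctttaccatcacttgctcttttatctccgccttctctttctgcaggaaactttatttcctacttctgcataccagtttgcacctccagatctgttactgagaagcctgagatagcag
Ccl6: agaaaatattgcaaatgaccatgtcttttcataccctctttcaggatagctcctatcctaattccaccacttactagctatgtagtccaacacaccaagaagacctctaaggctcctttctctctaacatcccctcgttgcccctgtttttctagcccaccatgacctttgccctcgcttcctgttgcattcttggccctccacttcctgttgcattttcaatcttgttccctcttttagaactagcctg
Ackr2: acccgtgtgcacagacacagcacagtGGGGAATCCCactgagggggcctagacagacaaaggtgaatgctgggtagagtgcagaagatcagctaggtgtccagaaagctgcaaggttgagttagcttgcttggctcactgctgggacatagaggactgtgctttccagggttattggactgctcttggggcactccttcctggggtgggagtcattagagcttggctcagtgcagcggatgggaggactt

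Ccr8 and Ackr2 each held 1 match to the NF-kB pattern, Ccr2 held 1 to the C/EBP pattern, and Ccl6 held none of the 3, and no match overlapped another. RefSeq promoters were at hand for 46 of the 60 genes on the array, tested or not, with 52 start sites. Of the 8 genes that passed, 6 had a promoter at hand. Ccl2 and Ccl4 had none and were not scanned, nor were Ccl5 and Ccl7. The NF-kB pattern occurred in 20 of these 52 windows (38.5%), against 17.6% of all 32851 windows in the table and 22.1% of the 14781 windows of tested genes. Cxcl1 held 3 matches to it and Cxcl2, Cxcl10 and Ccl1 held 2 each, and these genes had a lower mean in Senp2-aKO fat without passing. A start site of Ccrl2, which fell, held 2 matches, and its other start sites held 0. Of the other tested genes with a match, Ccr3 and Cxcl9 were lower in mean. Ccr8, Ackr2, Ccl19, Ccl27a, Cxcl13, Ccr6 and Ccr9 also held a match and were higher in mean. The C/EBP pattern occurred in 44.2% of the 52 windows, against 36.8% of all and 30.1% of those of tested genes, and the AP-1 pattern in 6 of the 52, against 6.75% of all and 5.01% of those of tested genes. These are letter matches within 250 bases and not measured binding sites.

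Several genes of lymphocyte traffic were highest on Senp2-aKO replicate 2. Ccr7, which brings T lymphocytes and dendritic cells to lymph nodes, read 3.34 on that array and -1.94 to 0.43 on the other 7. Ccr6 of B lymphocytes read 2.18 against -4.49 to -1.31, Ccl19 2.57 against -1.43 to -0.07, and Ccl5 5.46 against 1.87 to 3.73. Cxcr3 of activated T lymphocytes read 1.13 against -1.23 to 0.01, and Cxcr6 0.60 against -2.34 to -0.16. In 15 of the 46 genes (32.6%) replicate 2 was the highest of the 8 arrays, against 18.9% of all genes, and in 7 it was the lowest, against 35.6% of all genes. The 15 include Ccr8, Ackr1 and Ackr2, which rose. None of Ccr7, Ccr6, Ccl19, Ccl5, Cxcr3 and Cxcr6 passed over the 8 arrays in limma, with log2 fold changes from -0.34 for Cxcr6 to 0.87 for Ccl19. Cxcr5, the receptor for Cxcl13, was above background on 2 control arrays and 1 Senp2-aKO array and was not tested, and it read 1.44 on replicate 2 and -6.03 to -2.04 elsewhere.

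**Figure D3:**
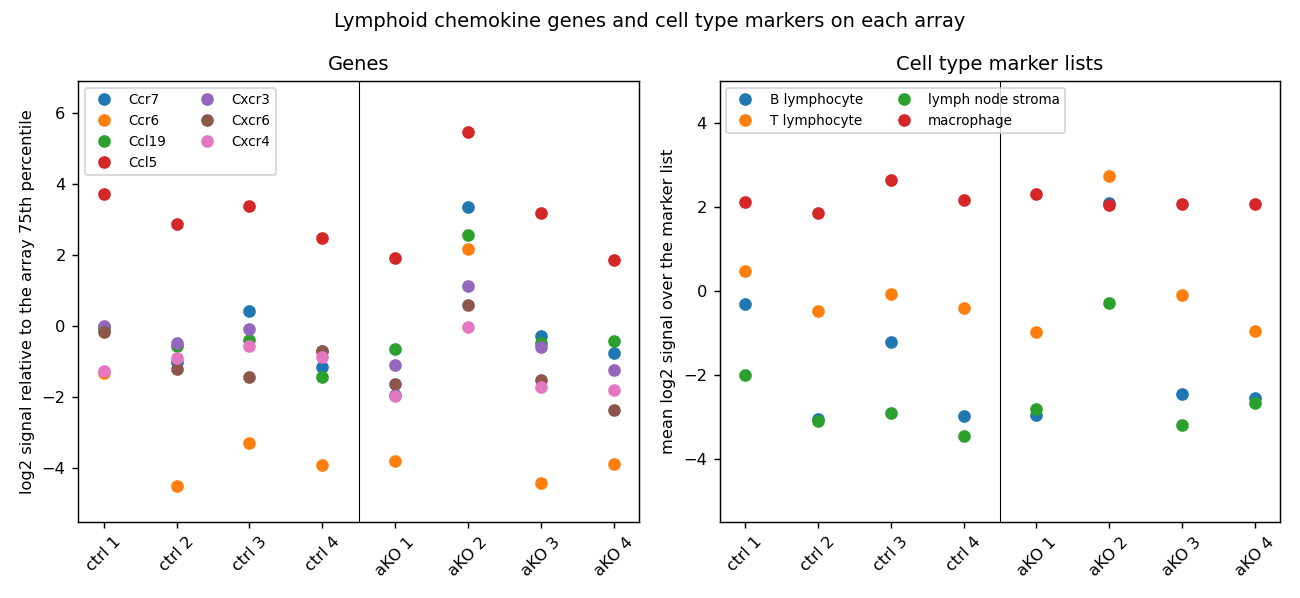
Log2 signal of 7 chemokine and receptor genes (left) and mean log2 signal of 4 lists of cell type markers (right) on each of the 8 arrays, with controls left of the line and Senp2-aKO samples right of it. Ccr7, Ccr6, Ccl19, Ccl5, Cxcr3, Cxcr6 and Cxcr4 are shown, from the 15 of 46 tested genes that were highest on aKO 2. The B lymphocyte, T lymphocyte and lymph node stroma lists are also highest there, while the macrophage list is not. The lymph node stroma list holds only Cr2, Fcer2a and Madcam1, and whether it is separate from the B lymphocyte signal was not tested. The neutrophil, dendritic cell and natural killer cell lists, also highest on aKO 2, are not shown.

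Without Senp2-aKO replicate 2, 5 genes of the family rose and 7 fell, 26.1% of the 46 against 19.2% of all genes. Ccrl2 lost its call (limma adjusted p = 0.0553), and Ccl27a, Cxcr4, Cx3cr1, Xcl1 and Ccl1 gained one. Cxcr4, the receptor for Cxcl12 on most leukocytes, read -1.27, -0.90, -0.55 and -0.86 in controls and -1.97, -1.72 and -1.78 in the 3 remaining Senp2-aKO samples, against -0.01 on replicate 2. It was 1.91-fold lower in this set (log2 fold change -0.93, SE 0.17, adjusted p = 0.0152), and -0.48 (SE 0.42, adjusted p = 0.466) over all 8 arrays. Ccl27a was 1.52-fold higher without replicate 2 (adjusted p = 0.0311).

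Xcl1, made by T and natural killer cells and aimed at cross-presenting dendritic cells, read -2.15, -2.52, -2.26 and -3.10 in controls and -2.66 on replicate 2. On the other 3 Senp2-aKO arrays it was not well above background. Over all 8 arrays it did not pass (log2 fold change -2.20, SE 0.74, adjusted p = 0.0835 in limma, and -0.54 with a normexp background). Without replicate 2 its measured signals passed as lower (adjusted p = 0.0159 in limma), on readings not well above background. The control mean was 4.73-fold above a floor, the dimmest signal of any probe well above background on each array. Readings above that floor entered as read, so 4.73-fold is not a strict lower limit. Ccl1 was likewise not well above background on those 3 arrays, with 3 of 4 controls above background. Its control mean was 1.50-fold above the same floor, and its measured signals passed as lower (adjusted p = 0.0250 in limma). With a normexp background, over all 8 arrays, Ccl1 gave a log2 fold change of -0.0027 (adjusted p = 0.990 in limma). The natural killer cell markers tested, 4 in number, had a mean of -0.28 on replicate 2, against -2.74 to -1.87 on the other Senp2-aKO arrays and -2.33 to -1.03 in controls. Their part in the lower Xcl1 level was not tested.

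Genes that lie side by side in the genome had fold changes of both signs. By RefSeq gene order on chromosome 11, Ccl2 and Ccl7 are direct neighbours and were both lower in mean, as were Ccl3 and Ccl4, of which Ccl2 and Ccl4 passed. Of the tested ligand genes between these pairs, Ccl11, Ccl8, Ccl9 and Ccl6 had positive fold changes and Ccl12, Ccl1 and Ccl5 negative ones, and among them only Ccl6 passed. On chromosome 9, a single predicted gene separates Ccr8 from Cx3cr1, with log2 fold changes of 2.65 and -2.13. The gene on the other side of Ccr8, the mitochondrial carrier gene Slc25a38, gave -0.30 (SE 0.09, adjusted p = 0.0641 in limma). Ccr3 and Ccr2 are direct neighbours and had negative fold changes of -0.45 and -1.41, of which Ccr2 passed.

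**Figure D4:**
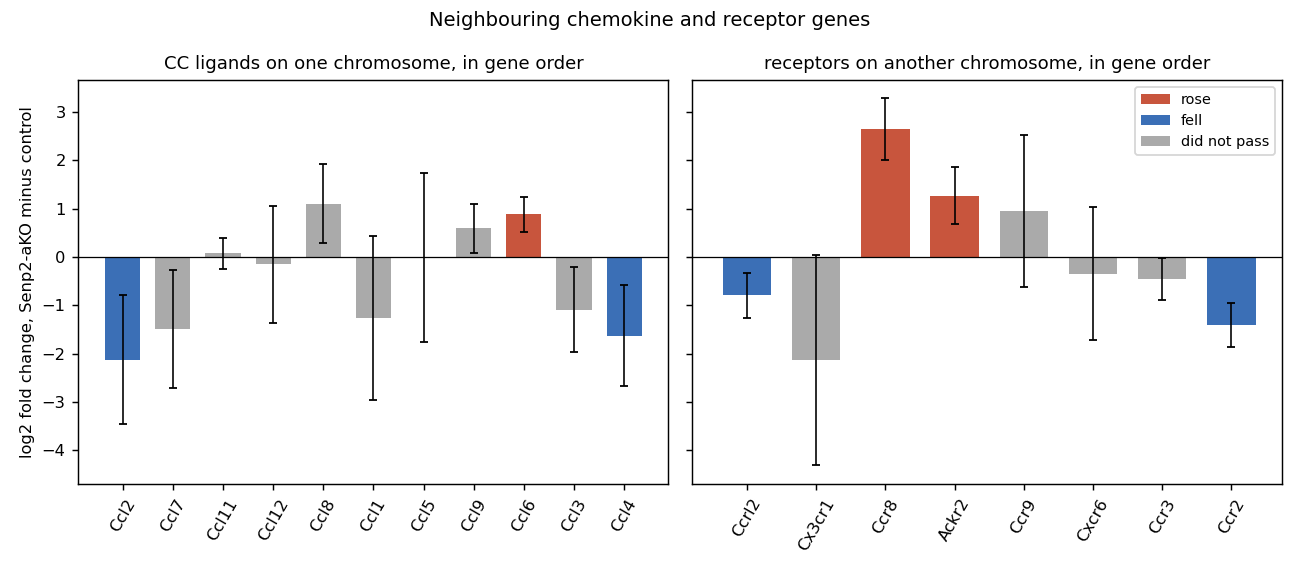
Log2 fold change (Senp2-aKO minus control, bars) with 95% intervals from limma (lines) for tested CC ligand genes of chromosome 11 (left) and receptor genes of chromosome 9 (right), in RefSeq gene order and not to scale; red rose, blue fell and grey did not pass. Falling Ccl2 and Ccl4 sit at the ends of the ligand row with the risen Ccl6 between them, and Ccr8 at 2.65 stands near Cx3cr1 at -2.13.

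The genes around the chemokine system were followed in 6 lists with 89 tested genes, of which 4 rose and 5 fell, 10.1% against 14.4% of all genes. The number that fell was 11 without Senp2-aKO replicate 2, 1 without replicate 1 or 4, 2 without control 2 or 4 and 0 without control 1 or 3. Calls over all genes moved too, to 2828 without replicate 2 and 714 to 1254 without replicate 1, replicate 4 or a control. In receptor signalling, 2 of 27 fell, Ptk2b, an adhesion kinase activated by chemokine receptors (log2 fold change -0.39, SE 0.09), and Tln1, the talin that switches on integrins (-0.34, SE 0.09), and 0 rose. In receptor desensitisation by arrestins, receptor kinases and Rgs proteins, 0 of 10 passed in limma, 3 had an unadjusted p under 0.05, and the median was -0.25. In leukocyte adhesion, 1 of 12 rose, Itgb7, a gut-homing integrin chain that mast cells also carry (2.48-fold, SE 0.24 on the log2 scale, adjusted p = 0.0138, n = 4 per group), as did the mast cell markers Cpa3 and Mcpt4, 2 of 5 tested. Of 16 genes that induce ligands, including Tnf, Il1b and Nfkb1, 0 passed in limma, and the median was -0.21. The 3 with an unadjusted p under 0.05 differed in direction. Myd88 (0.53, adjusted p = 0.0520 in limma, groups not overlapping) and Nfkbia (0.50) were higher. Ifng was lower (-1.59), on 4 control and 2 Senp2-aKO arrays above background.

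Of 12 genes for enzymes and proteoglycans that modify chemokines or their receptors, 2 rose, 2 fell and 8 did not pass. Dpp4, a peptidase that clips the first residues off Cxcl12 and other ligands, rose 2.34-fold (adjusted p = 0.0104 in limma, n = 4 per group), and the proteoglycan gene Sdc4 rose 2.56-fold (0.00399). Tpst1, which sulfates tyrosines of chemokine receptors, fell 1.91-fold (0.0225). Mmp12, the macrophage elastase, passed as lower (0.0475), but it was well above background on 4 control arrays and only 1 Senp2-aKO array, and the groups overlapped. Of 12 genes for chemerin and other attractants, Cmklr1, the signalling receptor for chemerin, fell 1.61-fold (0.0345), as did Ccrl2, which also binds chemerin. Gpr1, a second chemerin receptor, rose 1.96-fold (0.0211). The skeletal muscle markers were higher on all 4 Senp2-aKO arrays than in any control, and their part in any of these results was not tested.

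The 14 genes that were not tested were well above background on at most 3 arrays. Ccl22, Ccl26, Ccr1, Ccr1l1, Ccr4, Cxcl3, Cxcl5 and Xcr1 were so on 0 of 8, and Cxcl15, Cxcl17 and Cxcr1 on 1 Senp2-aKO array each. Ccl20, the ligand of Ccr6, was above background on 2 control arrays and Ccl28, a ligand of epithelia, on 3, and both on 0 of 4 Senp2-aKO arrays. For Ccl28 the control mean was 1.70-fold above the kind of floor used for Xcl1, which is not a strict lower limit, with no test. Of the tested genes, 38 were above background on all 8 arrays. Ccr9 (log2 fold change 0.96, SE 0.68), Ccr10 (0.60, SE 0.34) and Cxcr2 (0.88, SE 0.64) complete the receptors and did not pass.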

How the data were processed

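Total RNA of iWAT from 4 control and 4 Senp2-aKO samples was measured on 1-colour Agilent arrays. Agilent Feature Extraction 11.5.1, named in the submitters' processing notes, subtracted the background and removed trends within each array, per the file headers. Its processed, median and local background signals were deposited as linear intensity, not scaled from one array to another, beside flags for each spot. A deposited matrix was not used here, because its 8 columns match no label. Each array's 75th percentile was subtracted from its log2 processed signals, and spots of a probe were averaged without outlier-flagged and control spots. A probe was kept when well above background on at least 4 of 8 arrays. Probes were named by RefSeq accession through the RefSeq table of GRCm38.p6 (the array design names mm9), and the brightest kept probe stood for its gene. The test was that of limma 3.58.1 (R 4.3.3), two-sided and adjusted over 14731 genes. Its check on simulated data gave both groups the control spread and drew each gene independently. That check therefore does not cover a wider spread or a distinct array among the Senp2-aKO samples. Genes planned for full values were those that passed, those whose groups did not overlap and a fixed list (its Ccl21a has no probe of that name). From that list Ccl19, Ccr7, Cxcr3, Cxcr5 and Pf4 are given in part, and Cxcl1, outside the plan, is given in full. The values of 1 tested gene are not reported here, though it stays in the counts. The members and lists were chosen with earlier results of these data known. Alternatives changed the scaling, background, filter, probe rule, outlier spots, array weights and replicate block, and left out each array. The number of arrays limits the precision.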

Additional observations from a re-analysis of the deposited data

Results flagged for a closer look

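Among 92 groups of 4 values, from the 46 tested genes, 6 held 1 array far from the other 3, measured as the gap to the nearest value over the range of the group, where chance gives about 1 in 20 groups. Senp2-aKO replicate 2 was the distant array for Ccl19 (gap 0.925 of the range, 2.57 against -0.64 to -0.40), Ccr6 (0.905, 2.18 against -4.42 to -3.79) and Cxcr4 (0.871, -0.01 against -1.97 to -1.72). Cxcl12 was highest on Senp2-aKO replicate 4 (0.892, 4.67 against 4.38 to 4.41). Ackr4 was highest on Senp2-aKO replicate 3 (0.887, -2.67 against -3.82 to -3.69). Cxcl14 was lowest on control 3 (0.864, 3.70 against 4.25 to 4.33).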

How the results depend on the processing

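Under quantile normalisation, the filter on all 8 arrays, averaged probes and outlier spots kept, the same 8 genes passed. With a normexp background 7 of them passed. The counts of 4 risen and 4 fallen genes became 3 and 1 with no filter on dim probes and 8 and 9 with array weights. All genes that passed numbered 2123 of 14731 in the main result, 1537 of 20915 with no filter and 3766 of 14731 with array weights. Pathway genes that fell, 5 in the main result, numbered 9 under quantile normalisation, 2 with no filter and 14 with array weights. Leaving out each array gave 2 to 5 risen and 1 to 7 fallen genes, 8 to 15 without overlap, a median of -0.09 to 0.09, and 3 to 5 risen and 0 to 11 fallen pathway genes. Calls over all genes numbered 714 to 2828 in these omissions. Without Senp2-aKO replicate 2, 7 fell, and without any control, Senp2-aKO replicate 1 or replicate 4, 1 fell; 2 rose without control 1. Among pathway genes 11 fell without Senp2-aKO replicate 2, 5 without replicate 3, 1 without replicate 1 or 4, 0 without control 1 or 3 and 2 without control 2 or 4. Only genes that had not passed changed sign: Pf4 under quantile normalisation (-0.0050), Ccr3 with normexp (0.029), and Ccr6 (-0.67) and Ccr7 (-0.38) with array weights, and, with single arrays left out, Ackr3 (-0.29 to 0.35), Ccl11 (-0.051 to 0.13), Ccl12 (-0.53 to 0.34), Ccl24 (-0.17 to 0.36), Ccl25 (-0.0084 to 0.24), Ccl5 (-0.80 to 0.40), Ccr6 (-0.78 to 1.42), Ccr7 (-0.56 to 1.20), Cx3cl1 (-0.17 to 0.067), Cxcr3 (-0.65 to 0.13), Cxcr6 (-0.95 to 0.030) and Ppbp (-0.35 to 0.078). Same-numbered samples deviated together with r of -0.08 to 0.14 across genes, so the numbers were not taken as pairs. With the replicate block 4 rose and 4 fell, Ccl4 and Ccl6 losing and Ccl7 and Cxcr2 gaining a call, and 1 pathway gene fell. The cause of these shifts was not tested.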

Other observations

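Senp2-aKO replicate 3 differed from its group in a pair of genes that did not pass. The log2 level of Ccl24, an attractant of eosinophils, was 3.62 there and 2.05 to 2.57 on the other 7 arrays, and that of Ackr3 was 4.05 against 2.14 to 3.17. Control 3 was the highest of the 8 arrays for 11 of the 46 genes, among them Ccl2, Ccl3, Ccl4, Ccl7, Cxcl2, Cxcl9, Cxcl10 and Cx3cr1, whereas it was highest for 12.2% of all genes. Ccl8 and Ccl9 read 5.49 and 5.37 on control 3, within the range of the Senp2-aKO samples.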
